A study of Homo sapiens with 6 samples.

Results

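The 31 genes described here are established transcriptional targets of p53, chosen by name from the 50868 genes of the deposited expression table, and all 31 were found there. They had been grouped by role with earlier results of these data known, and the inhibitors of cyclin-dependent kinases and the BCL2 family, which also hold p53 targets, were kept out of the list. RNA was sequenced from KYSE-150, a cell line long established from a human squamous carcinoma of the oesophagus and kept here in RPMI 1640 medium with 10% serum. The group siZNF514 held 3 libraries from cells that the labels describe both as a ZNF514 knockout and as siZNF514, and the group nc held 3 libraries that the series text calls wild type. The prefix si usually denotes RNA interference, a knockdown of the transcript that leaves the gene in place. The labels do not say whether nc cells received a control RNA, or whether a group's 3 libraries are separate cultures. A p-value here therefore only sets the difference between the groups against the spread of these libraries within a group, which may be technical.

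p53 is a transcription factor that accumulates when DNA is damaged or ribosome assembly, nutrients or oncogene activity are disturbed. It binds a pair of short half-sites near its targets and raises genes that halt the cell cycle, repair DNA, adjust metabolism or start apoptosis, and MDM2, itself a target, marks p53 for degradation and so closes the loop. Many of these targets also answer to other factors, among them p63, FOXO factors and the stress regulator ATF4, and p53 is altered in most squamous tumours of the oesophagus. The activity and the mutation state of p53 were not measured in these libraries.

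The half-site to which p53 binds has a consensus of 10 bases, which was searched as an exact match in the windows of 250 bases before to 50 bases after each RefSeq transcription start (GRCh38.p14). Windows were matched for 24 of the 31 genes, 36 windows in all (FBXO22, RRM2B, ASCC3, GADD45A, TNFRSF10B, PHLDA3 and TP53INP1 were not matched), and 7 windows, 1 in each of 7 genes, held a match, which is 19.4%, against 6.63% of all 35116 windows. Of the 70 windows of other known p53 targets, 5 held a match, which is 7.14%. Because the consensus is its own reverse complement, one search covers both strands. Sites that depart from the consensus were not searched. These 7 stretches are shown because they hold the exact matches found in the windows of these targets, with each half-site in capitals:

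DDB2: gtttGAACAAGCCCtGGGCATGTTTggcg
SESN1: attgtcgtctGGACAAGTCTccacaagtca
FAS: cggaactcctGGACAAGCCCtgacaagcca
AEN: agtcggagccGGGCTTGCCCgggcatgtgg
FDXR: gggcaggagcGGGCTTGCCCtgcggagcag
RPS27L: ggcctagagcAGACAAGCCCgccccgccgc
PLK2: tggcgggacaAGACTTGCTTcccggccacg

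The DDB2 stretch (chr11:47214975-47215003, plus strand) held 2 half-sites with 1 base between them, the first starting at base 6 of the transcript from one of the 2 starts listed for that gene. Only 10 of all 35116 windows held 2 exact half-sites at most 13 bases apart, and DDB2 was the sole gene among the targets described here with such a pair. The other stretches held 1 exact half-site each, starting 11 bases before a listed start in FDXR (chr17:74872986-74873015, minus strand), 34 in AEN (chr15:88621296-88621325, plus strand), 49 in SESN1 (chr6:109009018-109009047, minus strand), 59 in RPS27L (chr15:63157517-63157546, minus strand), 122 in FAS (chr10:88991299-88991328, plus strand) and 132 in PLK2 (chr5:58460199-58460228, minus strand). SESN1 and FAS had 3 windows each and FDXR had 2, and only 1 window of each gene held the match. The SESN1 match lies inside the deposited locus, which begins at 109094819 on the minus strand, and not near that base. MDM2, whose known p53 sites lie in its first intron, had no exact half-site in its 4 windows, which says only that these letters are not there. Of the 7 genes, FDXR, RPS27L and SESN1 rose, DDB2 fell, and FAS, AEN and PLK2 did not pass the test described below, which 50.6% of all genes passed; the FDXR call was lost in 9 of 14 alternatives. A match is a description of the sequence, and binding was not measured.

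The libraries held 13262363 to 14318909 counts in siZNF514 and 12175259 to 13696180 in nc, so that 1 count was worth 0.0701 to 0.0789 CPM (counts scaled to a common library size with TMM factors). ZNF514 itself, a zinc finger gene, had 5.02, 6.29 and 4.62 CPM in siZNF514 and 18.6, 19.1 and 20.6 CPM in nc, which is 27.3% of the nc level (log2 fold change -1.87, SE 0.14, edgeR adjusted p = 5.77e-05; exact two-sided permutation p = 0.1, the smallest that 3 against 3 libraries allow). ZNF514 shares 2105 bases on the same strand with MRPS5, which had 7842 counts over all libraries against 982 for ZNF514 and rose (0.30), so reads of the overlap could enter either count. Epithelial markers were abundant, with a summed level of 4531 to 5428 CPM in siZNF514 and 3656 to 3969 CPM in nc for all 6 genes of the list, of which KRT19 had at most 32 counts in any library. Most of the sum was KRT8 and KRT18, and the list was mixed. KRT8 (log2 fold change 0.58), KRT18 (0.77) and EPCAM (0.41) rose, KRT5 fell (-0.52), and CDH1 did not pass (-0.23). Endothelial markers summed to at most 3.31 CPM in any library. Leukocyte markers summed to 48.8 to 54.5 CPM in siZNF514 and 55.7 to 68.2 CPM in nc, nearly all of it CD68, which other cells also express. Fibroblast markers summed to 0.383 to 17.1 CPM in siZNF514 and 1.33 to 2.13 CPM in nc, and the 17.1 CPM was siZNF514 replicate 3, in which COL3A1 was the highest of the 5 at 8.21 CPM. In bulk RNA, fewer cells of a type and less RNA per cell cannot be told apart.

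The p53 targets moved in both directions, and the share that passed was close to that of all genes. Of the 31, 29 had enough counts to be tested, and 9 rose, 5 fell and 15 did not pass at 0.05 (edgeR's quasi-likelihood F test, Benjamini-Hochberg adjusted over every gene tested). The 14 that passed are 48.3% of the targets tested; of all 14250 genes tested, 50.6% passed, 25.5% as higher in siZNF514 and 25.1% as lower. The median log2 fold change (siZNF514 over nc) was 0.09 for the targets and -0.01 for all genes, and the targets ran from -1.19 for DDB2 to 1.17 for BTG2, the 2 genes with a change of at least 2-fold past the threshold (9.28% of all genes tested). In 18 of the 29 the siZNF514 and nc libraries did not overlap in CPM, 11 higher and 7 lower, and this was so for 60.3% of all genes, 30% higher and 30.3% lower. The direction of the balance depended on the scaling: with total counts in place of TMM factors, the median of all genes moved to -0.14, and 7 targets then passed as higher and 10 as lower. All genes moved the same way, with 2493 then higher and 4775 lower, against 3629 and 3583 with TMM factors. Every change given here otherwise rests on the TMM scaling.

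**Figure D1:**
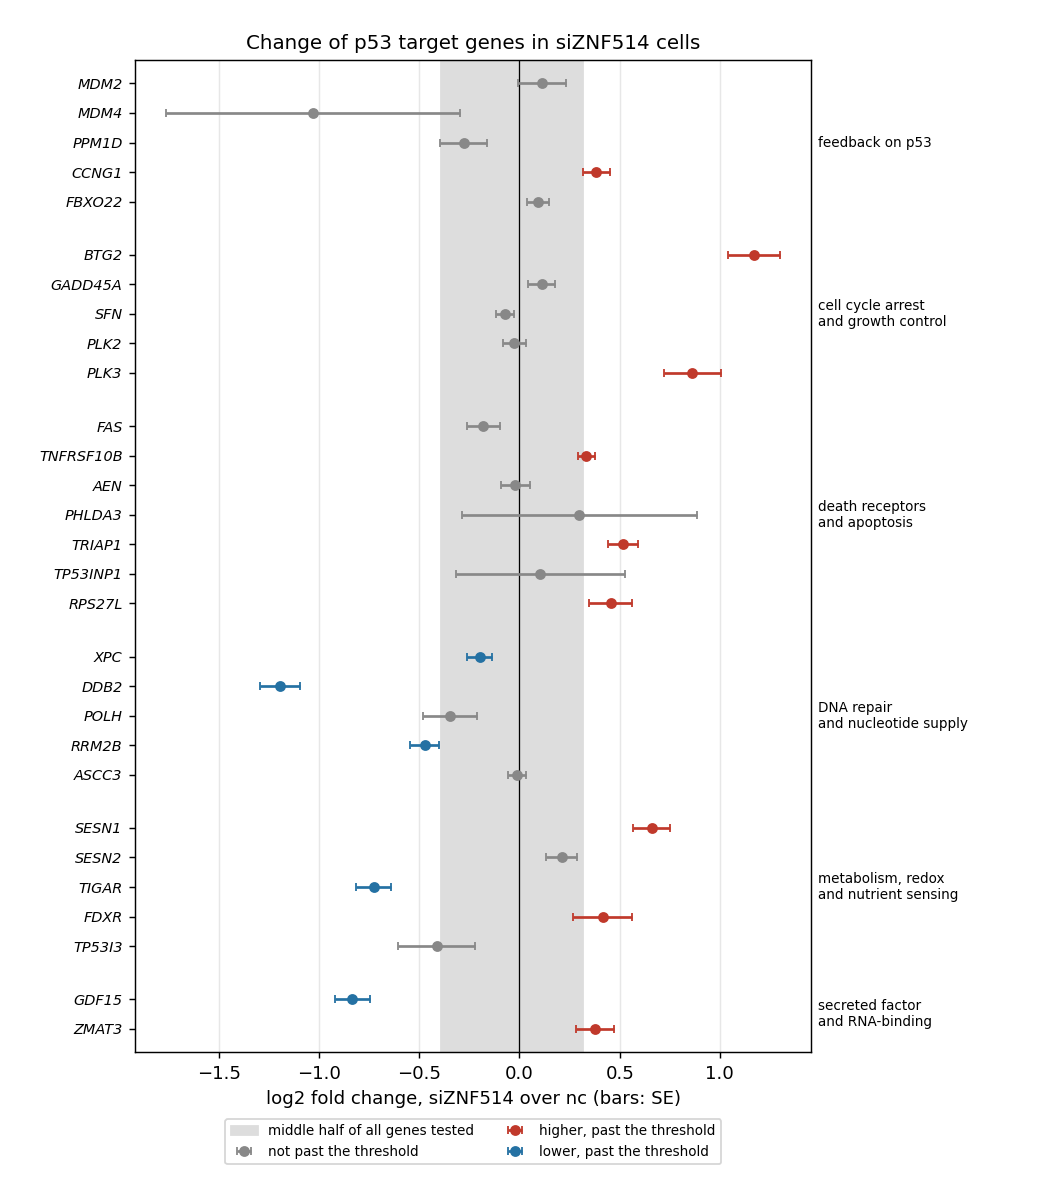
Log2 fold change of 29 p53 target genes, siZNF514 over nc, with its SE from edgeR on 3 libraries a group, ordered by role. The grey band runs from the lower to the upper quartile of all 14250 genes tested, -0.39 to 0.31; 14 of the 29 targets lie inside it, 9 above and 6 below.

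The summed level of the 31 targets was about the same in all libraries, at 1484, 1493 and 1578 CPM in siZNF514 and 1534, 1494 and 1514 CPM in nc. Abundant genes weigh most in this sum, SFN alone with a mean of 345 CPM in siZNF514 and 362 CPM in nc. The sum therefore does not describe the genes one by one. Per length, the median level of the targets tested was 3.23 FPKM (the deposited level, which is per length) over the 6 libraries, against 3.75 FPKM for all genes tested. SFN, which encodes the epithelial 14-3-3 protein that holds mitotic kinases in the cytoplasm, stood far above the rest, at 249.7 ± 11.4 FPKM in siZNF514 and 286 ± 8.21 FPKM in nc (SD, n = 3 each). TNFRSF10B (17.6 FPKM over all libraries), GADD45A (17.3) and PLK2 (15.7) came next. At the other end, MDM4 (0.236 FPKM) and TP53INP1 (0.136 FPKM) were barely expressed.

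**Figure D2:**
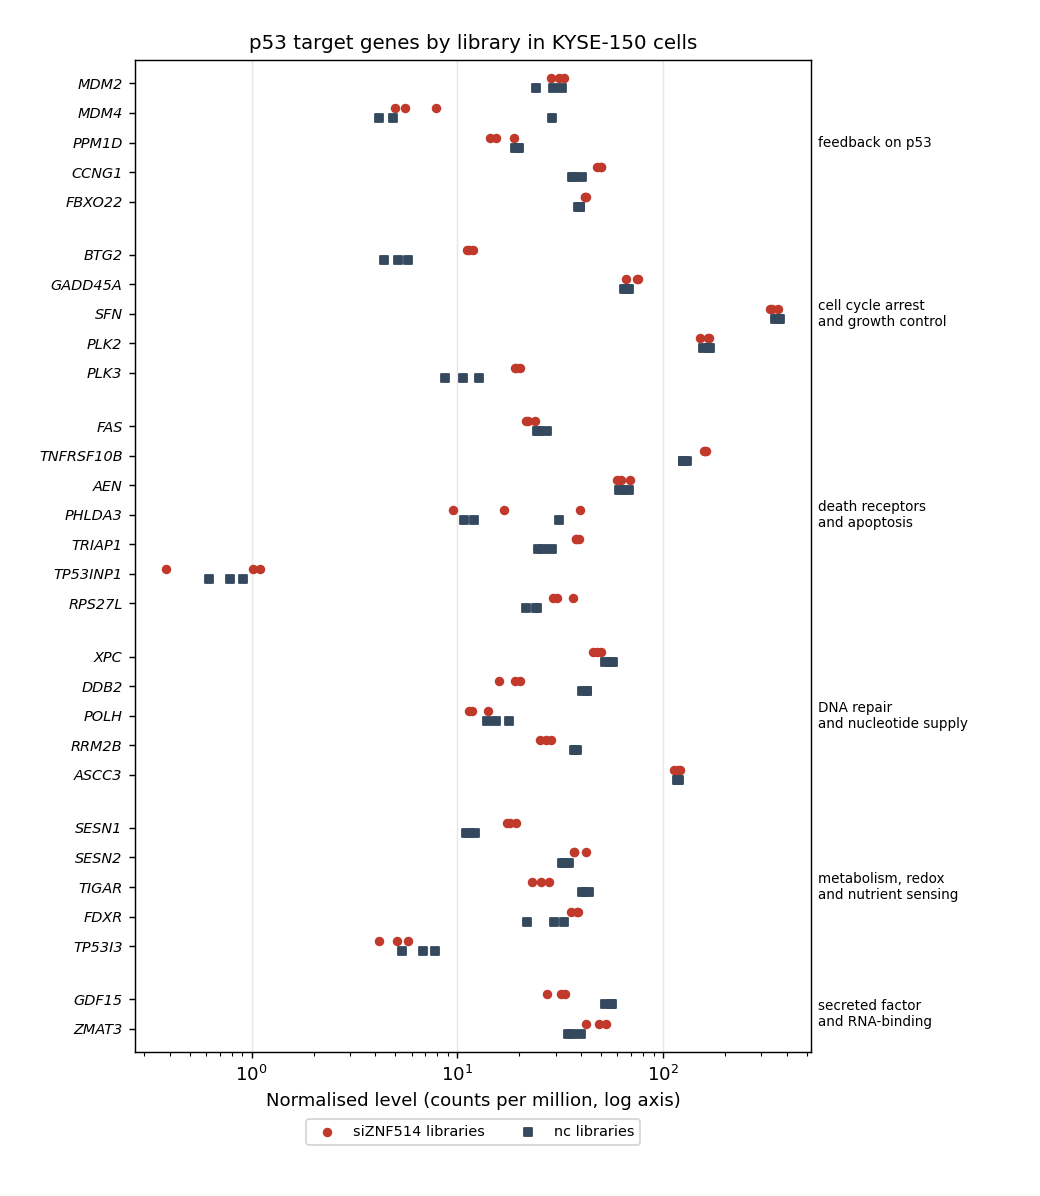
Level of 29 p53 target genes in each library, in CPM on a log axis, with siZNF514 libraries as circles above nc libraries as squares, ordered by role. Most genes keep their libraries close together, while MDM4, PHLDA3 and TP53INP1 spread widely within a group.

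Among the 5 genes that feed back on p53, only CCNG1 passed the test (20% called, against 50.6% of all genes), too few to read a direction of the role from. CCNG1 (ENSG00000113328; hg38 chromosome 5, 163437569 to 163446151, plus strand) encodes cyclin G1, which recruits a phosphatase to MDM2. It stood at 50.1, 49.8 and 47.7 CPM in siZNF514 and 35.9, 40.3 and 36.8 CPM in nc. The groups did not overlap, and CCNG1 rose (log2 fold change 0.38, SE 0.07, edgeR adjusted p = 0.00256). MDM2 (ENSG00000135679; chromosome 12, 68808172 to 68850686, plus strand), the ubiquitin ligase that destroys p53 and one of its most reliable targets, had 31.3, 28.4 and 32.9 CPM in siZNF514 and 23.99, 29.2 and 32.4 CPM in nc. The groups overlapped and MDM2 did not pass (0.11, 95% interval -0.17 to 0.40, edgeR adjusted p = 0.467), nor did it under any alternative tried.

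The other 3 feedback genes did not pass either. PPM1D, the phosphatase WIP1 that switches off damage kinases and p53, had 15.4, 14.3 and 18.8 CPM in siZNF514, all below the 19.8, 19.1 and 20.04 CPM in nc (log2 fold change -0.28, SE 0.12, edgeR adjusted p = 0.0855). PPM1D passed as lower in 4 of 14 alternatives: total counts, both FPKM fits, and without siZNF514 replicate 3 (-0.39, edgeR adjusted p = 0.0177). FBXO22, a ubiquitin ligase adaptor that binds p53 with the demethylase KDM4, had 41.6 to 42.1 CPM in siZNF514 and 38.7 to 39.6 CPM in nc, a small difference of 0.09 (SE 0.05) that did not pass.

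MDM4, the relative of MDM2 that covers the activation domain of p53, rested on 1 library. It had 71, 65 and 107 counts in siZNF514 and 370, 59 and 62 in nc, which is 5.57, 4.98 and 7.84 CPM in siZNF514 and 28.7, 4.14 and 4.89 CPM in nc. The first nc library was 6.94 times the lowest one, a ratio within nc reached by 0.172% of the 11604 genes whose mean count was 50 or more. The log2 fold change was -1.03 (SE 0.73, edgeR adjusted p = 0.279) with all libraries and 0.45 (edgeR adjusted p = 0.188) without nc replicate 1, so no direction is given for it.

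Of the genes that act on the cell cycle, BTG2 and PLK3 rose, and SFN, GADD45A and PLK2 did not pass. The share called was 40%, against 50.6% of all genes, and the genes are too few to read a direction of the role from. BTG2 (ENSG00000159388; chromosome 1, 203305491 to 203309602, plus strand), an antiproliferative cofactor that speeds mRNA deadenylation, had 11.4, 11.96 and 11.1 CPM in siZNF514 against 4.42, 5.12 and 5.76 CPM in nc. All siZNF514 libraries lay at about the same level and well above every nc library, and BTG2 stood at 225% of its nc level (log2 fold change 1.17, SE 0.13, edgeR adjusted p = 0.000379). PLK3 (ENSG00000173846; chromosome 1, 44800225 to 44805990, plus strand), a stress-responsive polo-like kinase, had 19.2, 19.1 and 20.1 CPM in siZNF514 against 8.69, 12.7 and 10.7 CPM in nc. It rose to 182% of nc (0.86, SE 0.14, edgeR adjusted p = 0.00209), again with no overlap. Both calls held under every alternative tried.

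The 3 more abundant members of this role lay close to 0 on the log2 scale. SFN had 331, 339.6 and 364 CPM in siZNF514 and 349.7, 366 and 372 CPM in nc (log2 fold change -0.07, 95% interval -0.18 to 0.04). It passed as lower in 3 of 14 alternatives, those with total counts and both FPKM fits. PLK2, a polo-like kinase of centriole duplication, had 166, 152 and 167 CPM in siZNF514 and 169.8, 156 and 167 CPM in nc (-0.03, 95% interval -0.16 to 0.11). GADD45A, which binds CDK1 and PCNA, had 65.9, 74.7 and 75.2 CPM in siZNF514 and 68.5, 64.4 and 67.1 CPM in nc (0.11, 95% interval -0.05 to 0.27), and it passed only without siZNF514 replicate 1 (0.18, edgeR adjusted p = 0.0466). Their libraries overlapped between the groups.

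Paralogs of the targets are given beside them, a list chosen by knowledge of the families with an earlier account of these data read. It does not hold every paralog, and the TRAIL receptors related to TNFRSF10B are counted among the other p53 targets. The shares below therefore describe this list and not paralogs in general. Of 18 paralogs tested, 10 rose (55.6%, against 25.5% of all genes) and 3 fell (16.7%, against 25.1%), with a median log2 fold change of 0.21. BTG1, the closest relative of BTG2 and a known FOXO target, had 117 ± 3.93 CPM in siZNF514 and 65.5 ± 5.26 CPM in nc (0.83, SE 0.07). CCNG2, the relative of CCNG1, had 104 ± 5.29 CPM in siZNF514 and 23.6 ± 1.04 CPM in nc (2.14, SE 0.06), against 0.38 for CCNG1. GADD45B had 46.4 ± 1.96 CPM in siZNF514 and 27.9 ± 2.94 CPM in nc, and rose by 0.73 (SE 0.09), whereas GADD45G, at 1.06 ± 0.447 CPM in siZNF514 and 2.92 ± 0.441 CPM in nc, fell (-1.46, SE 0.32). PLK1, the mitotic polo-like kinase, rose by 1.03 (SE 0.06). All of these passed with an edgeR adjusted p of at most 0.0081, and differences between paralogs were not tested.

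Of 7 death receptor and apoptosis genes tested, 3 rose and none fell (42.9% called, against 50.6% of all genes), too few to read a direction of the role from. TNFRSF10B (ENSG00000120889; chromosome 8, 23020133 to 23069179, minus strand), the TRAIL receptor DR5, had 159, 158 and 162 CPM in siZNF514 against 125, 124 and 131 CPM in nc. The groups did not overlap, and TNFRSF10B rose (log2 fold change 0.33, SE 0.04, edgeR adjusted p = 0.000627). Its locus shares 67 bases with RHOBTB2 on the opposite strand, which fell (-1.66). The decoy receptor TNFRSF10D rose too, with 38.2 ± 0.662 CPM in siZNF514 and 27.5 ± 0.0325 CPM in nc (0.47, SE 0.06). The other TRAIL receptors of the list of other p53 targets, chosen after their values were seen, did not rise. The decoy TNFRSF10C fell at a very low level, with 0.701 ± 0.474 CPM in siZNF514 and 2.12 ± 0.321 CPM in nc (-1.57, SE 0.47, edgeR adjusted p = 0.0277). That call was lost with the replicate block and without nc replicate 1 or 3 (edgeR adjusted p up to 0.0759). The death receptor TNFRSF10A, with 76.4 ± 3.01 CPM in siZNF514 and 82.0 ± 1.96 CPM in nc, did not pass (-0.10, SE 0.05). FAS, the other classical death receptor of this role, lay lower without passing: it had 23.9, 21.5 and 22.1 CPM in siZNF514, all just below the 24.4, 27.1 and 25.01 CPM in nc (-0.18, SE 0.08, edgeR adjusted p = 0.111). FAS passed as lower in 3 of 14 alternatives, those with total counts and both FPKM fits. Its locus overlaps ACTA2 on the opposite strand, which had 457 counts over all libraries against 1906 for FAS and fell (-0.55); without knowledge of strand use in counting, reads of the overlap cannot be told apart.

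TRIAP1 and RPS27L, both small proteins, rose as well. TRIAP1 (ENSG00000170855; chromosome 12, 120443961 to 120446412, minus strand), which carries phosphatidic acid in mitochondria and restrains apoptosis, had 37.6, 38.9 and 37.8 CPM in siZNF514 against 24.8, 26.3 and 28.8 CPM in nc (log2 fold change 0.52, SE 0.08, edgeR adjusted p = 0.00127). RPS27L (ENSG00000185088; chromosome 15, 63125872 to 63158021, minus strand), a ribosomal protein variant that modulates MDM2, had 30.4, 36.6 and 29.2 CPM in siZNF514 against 24.1, 21.7 and 24.4 CPM in nc (0.46, SE 0.11, edgeR adjusted p = 0.0105). The libraries of both genes were separate between the groups. RPS27L lies across LACTB on the opposite strand and has a near-identical paralog, RPS27 (-0.12, SE 0.10, not past), with which it could share reads, so its value is uncertain.

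The remaining apoptosis genes gave no call. AEN, an exonuclease that digests nuclear DNA and RNA, had 62.1, 60.0 and 69.0 CPM in siZNF514 and 68.6, 60.8 and 64.4 CPM in nc (-0.02, SE 0.07). PHLDA3, which blocks AKT at the membrane, was scattered in both groups, with 9.57, 16.9 and 39.6 CPM in siZNF514 and 31.1, 12.1 and 10.7 CPM in nc. Its log2 fold change was 0.30 (SE 0.59), -0.43 without siZNF514 replicate 3 and 0.95 without nc replicate 1, and none of these passed. The siZNF514 library with the highest PHLDA3 level is the one with 17.1 CPM of fibroblast markers. In nc, PHLDA3 was highest in replicate 1, at 31.1 CPM, while fibroblast markers summed to only 1.33 to 2.13 CPM in the nc libraries. The part of other cells in the PHLDA3 level was not tested. The paralogs gave PHLDA2 0.25 (SE 0.05), which rose, and PHLDA1 -0.24 (SE 0.05), which fell. TP53INP1, a regulator of autophagy and apoptosis, had 13, 5 and 15 counts in siZNF514 and 8, 13 and 10 in nc (0.10, SE 0.42), and it shares 23440 bases with NDUFAF6 on the opposite strand. EDA2R, a receptor for ectodysplasin A2, had 1 count in all, in nc, and SPATA18, which controls mitochondrial quality, had 0 in every library, which allows up to 0.237 CPM in the shallowest one, for counting error only.

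Of the 5 genes of DNA repair and nucleotide supply, DDB2, RRM2B and XPC fell and none rose, against 25.1% of all genes lower and 25.5% higher; 5 genes are too few to read a direction of the role from. DDB2 (ENSG00000134574; chromosome 11, 47214465 to 47239240, plus strand), the damage sensor of nucleotide excision repair with the pair of half-sites shown above at a listed start, had 15.8, 19.01 and 20.1 CPM in siZNF514 against 42.8, 40.5 and 42.5 CPM in nc. The groups lay far apart, and DDB2 fell to 43.7% of nc (log2 fold change -1.19, SE 0.10, edgeR adjusted p = 9.72e-05). RRM2B (ENSG00000048392; chromosome 8, 102204502 to 102239118, minus strand), the p53-inducible small subunit of ribonucleotide reductase that supplies deoxynucleotides outside S phase, had 27.1, 28.5 and 25.2 CPM in siZNF514 against 37.2, 36.8 and 38.2 CPM in nc. It fell (-0.47, SE 0.07, edgeR adjusted p = 0.00142), while its S-phase counterpart RRM2 had 449.9 ± 8.86 CPM in siZNF514 and 189 ± 2.72 CPM in nc (1.25, SE 0.03).

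XPC (ENSG00000154767; chromosome 3, 14145147 to 14178783, minus strand), which finds distorted DNA for excision repair, had 50.1, 45.5 and 47.9 CPM in siZNF514 against 55.5, 56.9 and 52.2 CPM in nc. It fell by 0.20 on the log2 scale (SE 0.06, edgeR adjusted p = 0.0352), but the call is near the threshold: it was lost when siZNF514 replicate 2 or 3, or nc replicate 1 or 2, was left out (edgeR adjusted p from 0.0826 to 0.117), with the replicate block (edgeR adjusted p = 0.0701), with no filter on low counts and with the DESeq2 Wald test (adjusted p = 0.117). XPC shares 426 bases with LSM3 on the opposite strand, which rose (0.68). POLH, the polymerase that copies past ultraviolet lesions, had 11.8, 11.4 and 14.1 CPM in siZNF514 and 14.0, 17.9 and 15.5 CPM in nc (-0.34, SE 0.13, edgeR adjusted p = 0.0669). It passed as lower in 5 of 14 alternatives: total counts, a mean count of at least 50, both FPKM fits, and without siZNF514 replicate 3 (-0.44). POLH shares 10345 bases with GTPBP2 on the opposite strand, which had 6017 counts against 1122 for POLH and rose (0.20). Its paralog POLI fell (-0.44, SE 0.14, edgeR adjusted p = 0.034), a call lost in 4 of the 6 fits with 1 library left out. ASCC3, a helicase of alkylation repair, had 121, 113 and 118 CPM in siZNF514 and 118, 116 and 120.1 CPM in nc (-0.01, 95% interval -0.12 to 0.10). It passed as lower only with total counts (edgeR adjusted p = 0.043).

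**Figure D3:**
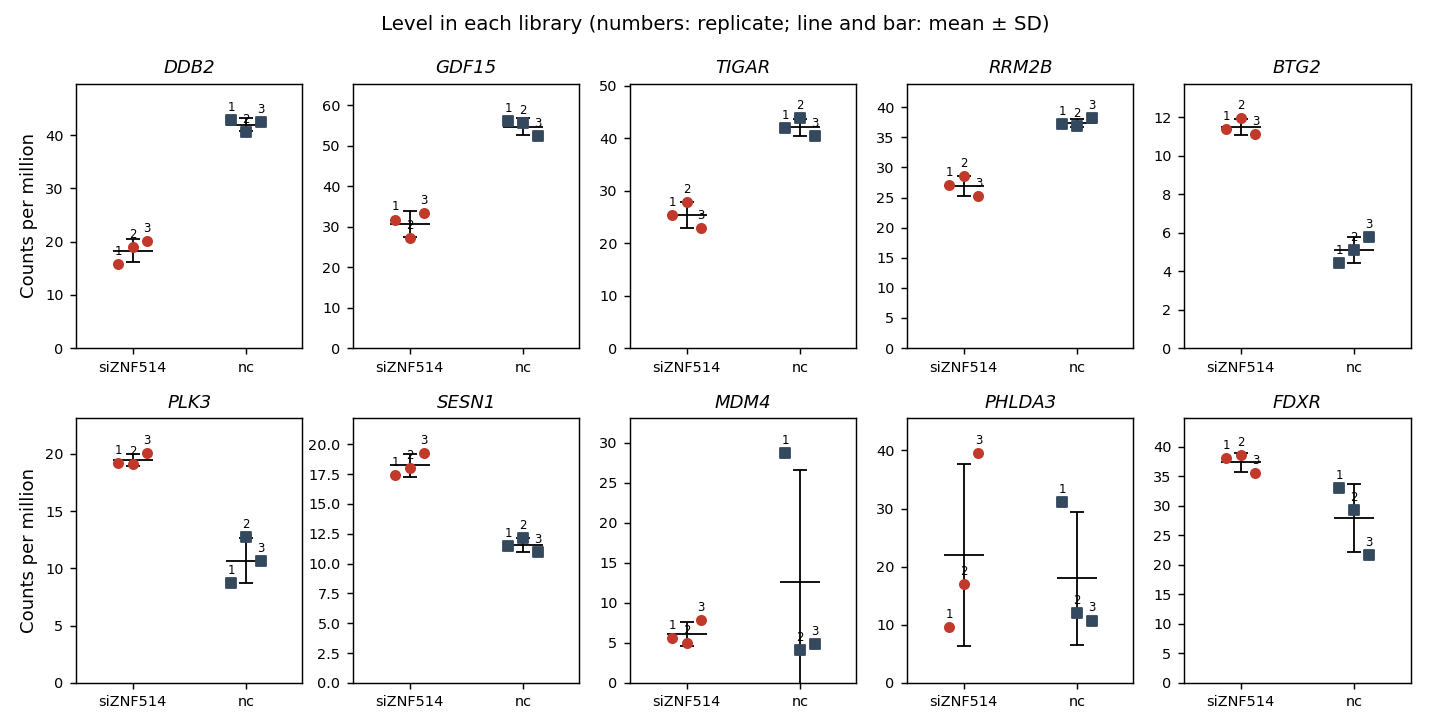
Level in CPM of 10 p53 target genes in each library, siZNF514 left of nc, with the replicate number beside each point and the mean and SD as a line and bar. DDB2, GDF15, TIGAR and RRM2B are lower and BTG2, PLK3 and SESN1 higher in every siZNF514 library, MDM4 is set by nc replicate 1, PHLDA3 is scattered in both groups, and FDXR is lowest in nc replicate 3.

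Of the 5 metabolic targets, 2 rose and 1 fell (60% called, against 50.6% of all genes), too few to read a direction of the role from. SESN1 (ENSG00000080546; chromosome 6, 108986437 to 109094819, minus strand), a sestrin that restrains mTORC1, had 17.4, 18.01 and 19.3 CPM in siZNF514 against 11.5, 12.1 and 10.97 CPM in nc, and it rose (log2 fold change 0.66, SE 0.09, edgeR adjusted p = 0.001). SESN2, a leucine sensor of the same family that is also an ATF4 target, had 36.8, 36.9 and 42.1 CPM in siZNF514, all above the 33.2, 34.8 and 32.1 CPM in nc, but did not pass (0.21, SE 0.08, edgeR adjusted p = 0.0577). SESN3, a FOXO target, was at 1.73 ± 0.346 CPM in siZNF514 and 0.835 ± 0.304 CPM in nc (1.05, SE 0.32, edgeR adjusted p = 0.0286, chosen after its values were seen), and lost its call in 4 of the 6 fits with 1 library left out. All 3 sestrins thus had positive changes, of which that of SESN1 passed in every alternative.

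TIGAR (ENSG00000078237; chromosome 12, 4307763 to 4354593, plus strand), a phosphatase that diverts glucose from glycolysis to the pentose phosphate pathway, had 25.4, 27.9 and 22.9 CPM in siZNF514 against 41.9, 43.8 and 40.5 CPM in nc. It fell to 60.4% of nc with no overlap (log2 fold change -0.73, SE 0.09, edgeR adjusted p = 0.000505). FDXR (ENSG00000161513; chromosome 17, 74862497 to 74873031, minus strand), the ferredoxin reductase of mitochondrial steroid and iron-sulfur chemistry, had 38.1, 38.6 and 35.5 CPM in siZNF514 against 33.0, 29.4 and 21.7 CPM in nc. It rose by the narrowest margin of the list (0.41, SE 0.15, edgeR adjusted p = 0.0486), kept its call in 1 of the 6 fits with 1 library left out, that without nc replicate 1 (0.55), and stood at 0.26 (edgeR adjusted p = 0.0507) without nc replicate 3. TP53I3, a quinone reductase that raises oxidative stress, had 5.10, 5.75 and 4.18 CPM in siZNF514 and 6.83, 5.40 and 7.81 CPM in nc, which overlapped (-0.41, SE 0.19, edgeR adjusted p = 0.113). TP53I3 passed as lower only in the fit of log2(FPKM + 1) (limma adjusted p = 0.047). It shares 8429 bases with FAM228B on the opposite strand.

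GDF15 (ENSG00000130513; chromosome 19, 18374731 to 18389176, plus strand), a secreted stress cytokine raised by p53 and by ATF4, had 31.8, 27.1 and 33.3 CPM in siZNF514 against 56.2, 55.7 and 52.4 CPM in nc. It fell to 56.1% of nc (log2 fold change -0.83, SE 0.09, edgeR adjusted p = 0.00026), and the call was kept under every alternative. ZMAT3 (ENSG00000172667; chromosome 3, 179017223 to 179072279, minus strand), an RNA-binding protein that p53 uses to alter splicing, had 42.4, 52.7 and 48.7 CPM in siZNF514 against 36.2, 34.6 and 39.8 CPM in nc. It rose (0.38, SE 0.10, edgeR adjusted p = 0.0149), a call that was lost with total counts in place of TMM factors (0.25, edgeR adjusted p = 0.0613) and in both fits of FPKM values (log2 fold change down to 0.19, limma adjusted p up to 0.0906).

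The p53 targets of the neighbouring families, which are only named here for comparison, moved as follows. CDKN1A, the inhibitor p21 that is the best known p53 target, had 128 ± 3.26 CPM in siZNF514 and 37.5 ± 3.66 CPM in nc (log2 fold change 1.77). The BH3-only genes BBC3 (0.98) and PMAIP1 (0.79) rose and the pore-forming BAX fell (-0.46), all with an edgeR adjusted p of at most 0.0009.

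A wider list of 56 other known p53 targets, drawn up with an earlier account of these data read, was also mixed. Of 52 tested, 16 rose and 15 fell, 59.6% in all against 50.6% of all genes, with a median log2 fold change of -0.06. Among those that rose with the smallest p-values, E2F7, a repressor of E2F target genes, had 99.0 ± 2.09 CPM in siZNF514 and 50.5 ± 1.89 CPM in nc (0.97, SE 0.05). The immediate early gene IER5 (0.56), the sulfatase gene SULF2 (0.47) and EPS8L2 (0.49), an actin regulator, rose too.

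Among those that fell were genes of several functions. DRAM1, a lysosomal protein of p53-linked autophagy, had 37.2 ± 0.548 CPM in siZNF514 and 74.7 ± 3.48 CPM in nc (-1.01, SE 0.06). The zinc finger genes ZNF561 and ZNF79 fell by 1.55 and 1.70 on the log2 scale, the carboxylesterase gene CES2 by 1.14, FAM210B by 0.70 and the phosphatase gene PTP4A1 by 0.62. The 10 genes named from this list in these sentences had an edgeR adjusted p of at most 0.000308.

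Regulators of p53 moved in both directions as well: of 25 tested, 7 rose and 7 fell, 28.0% each way, close to the 25.5% and 25.1% of all genes. RPL5, the ribosomal protein that with RPL11 binds MDM2 when ribosome assembly is disturbed, had 1688 ± 21.96 CPM in siZNF514 and 1090.3 ± 21.1 CPM in nc (log2 fold change 0.63), while RPL11, chosen after its values were seen, did not pass (0.03, SE 0.04). The ubiquitin ligase genes RCHY1 (0.59) and COP1 (0.36) and the deubiquitinase gene USP7 (0.25), which control p53 stability, rose, as did the p53 kinase gene DYRK2 (0.76) and the cofactor gene TTC5 (0.55). The acetyltransferase genes EP300 (-0.50) and CREBBP (-0.63), the kinase genes CHEK1 (-0.45) and TP53RK (-0.78), and PPP1R13B (-0.82), which steers p53 towards apoptotic targets, were among those that fell. TP63, a relative of p53 that marks squamous epithelium and shares many of its sites, had 50.7 ± 4.90 CPM in siZNF514 and 57.1 ± 3.84 CPM in nc and did not pass (-0.17, SE 0.09, chosen after its values were seen).

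**Figure D4:**
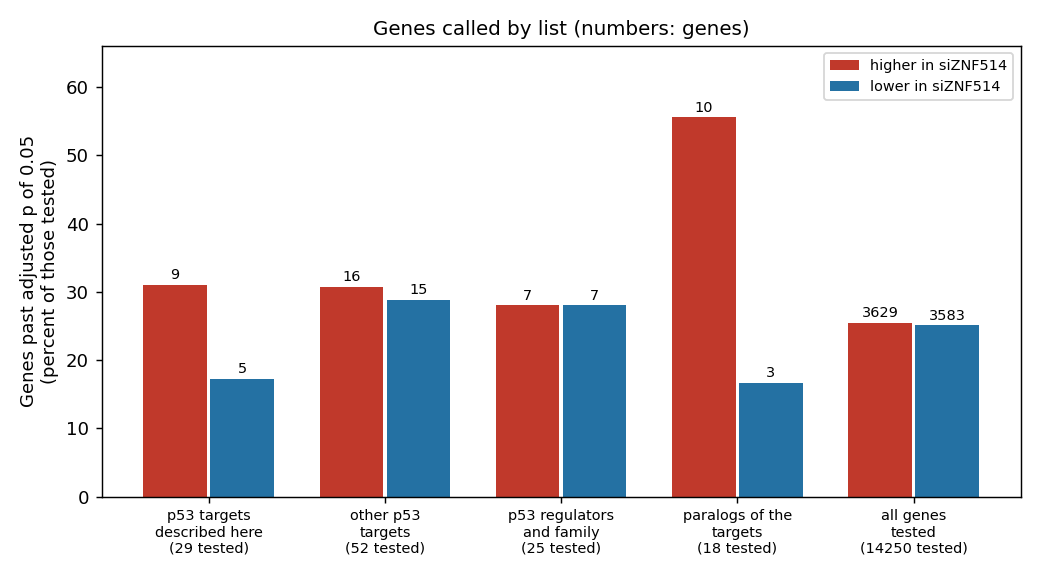
Percent of tested genes past an adjusted p of 0.05, higher (left bar) and lower (right bar) in siZNF514, for 4 gene lists and for all genes tested, with the number of genes on each bar. The 29 targets tested hold 9 higher and 5 lower genes, and the bars of all 14250 genes stand at 25.5% and 25.1%.

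The 14 called targets differed in how firmly they held. Leaving out each library in turn and changing the scaling, filter, test or unit gave 14 alternatives, and BTG2, PLK3, SESN1, TRIAP1, CCNG1, TNFRSF10B, RRM2B, TIGAR, GDF15 and DDB2 kept their call in every one. XPC, FDXR, RPS27L and ZMAT3 did not.

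**Figure D5:**
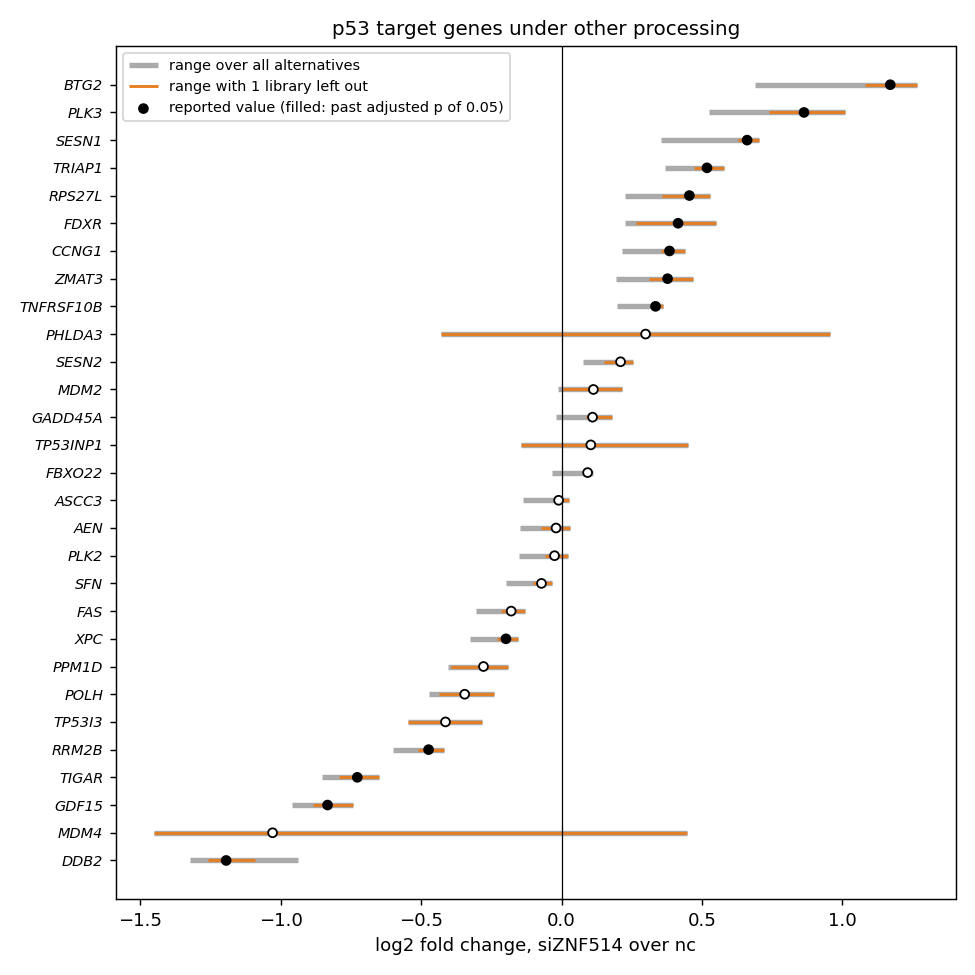
Log2 fold change of the 29 targets tested, siZNF514 over nc: points are the reported values, filled where past the threshold, grey bars the range over all alternatives and orange bars the range with 1 library left out. The filled points keep their sign throughout, whereas several open points have bars that cross 0, the widest being those of MDM4 (-1.45 to 0.45) and PHLDA3 (-0.43 to 0.95).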

How the data were processed

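The authors deposited 1 table of genes with whole-number counts and FPKM values for 6 libraries, 3 siZNF514 and 3 nc, matched to the labels by library title. Per the submitters' processing notes, the tools were edgeR, HISAT2 2.0.4 and StringTie 1.3.3b and the build hg38, with their roles not described. Strand use in counting, the annotation release and any filter are not stated in the labels. The deposited counts carry no visible normalization, and the deposited FPKM values are, by their name, scaled to gene length and library total; how they were computed is not stated.

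Counts were filtered with filterByExpr (minimum count 10, minimum total 15), scaled by TMM and tested with the edgeR 4.0.16 quasi-likelihood F test in R 4.3.3, with Benjamini-Hochberg adjustment at 0.05 over 14250 genes. The SE is the size of the log2 fold change divided by the square root of F. The procedure was tested on simulated data. Replicate pairs differed by more than sampling noise (chi-square 8.02 to 10.4 per degree of freedom). No batch is given in the labels. Alternatives were DESeq2 1.42.0, its size factors, total counts, other filters, limma 3.58.1 on log2(FPKM + 0.1) and log2(FPKM + 1), a replicate block and each library left out.

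The members, lists and roles were chosen with earlier results of these data known. Every member was named, with ZNF514, the 4 targets of the neighbouring families and up to 6 genes in each direction with the smallest p-values in other lists. Tested genes that overlap a member or ZNF514, or could share its reads, are also given, and any other gene is marked where it appears. Overlaps of the named genes of the other lists were not searched. Sequences are from RefSeq, and p53 itself and some genes of the other lists are not reported here. The labels name no molecular identifiers, so counting limits cover counting error only.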

Additional observations from a re-analysis of the deposited data

How the results depend on the processing

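Of the 14 targets called, 10 kept their call and direction in all 14 alternatives, and XPC, FDXR, RPS27L and ZMAT3 lost it in at least 1; 7 of the 15 not called passed in at least 1, and no called target changed direction in any of the 14, while several not called did, MDM4 and PHLDA3 over the widest ranges. The count of targets that fell, 5 in the reported fit, was 10 with total counts alone, 9 with limma-trend on log2(FPKM + 0.1) and 10 on log2(FPKM + 1). The median change over all genes was -0.13 and -0.08 (log2) in the FPKM fits. All genes moved the same way there: 4651 and 4686 fell, against 3583 in the reported fit, and 2528 and 2534 rose, against 3629. The cause was not tested. The count of other p53 targets that rose, 16 in the reported fit, was 10 with both FPKM alternatives, and with total counts alone 2493 of all genes rose and 4775 fell. With 1 library left out, 8 to 9 targets rose and 4 to 6 fell, beside 3197 to 3338 and 3104 to 3225 of all genes. The replicate block gave 9 targets higher and 4 lower, and 3356 and 3284 of all genes; same-numbered libraries did not deviate together (correlations of -0.04 to 0.04), so the numbers were not taken as pairs. Depth limits TP53INP1, EDA2R and SPATA18, which had 64, 1 and 0 counts in all.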
